A study of Mus musculus with 4 samples.

Results

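The receptors through which group 2 innate lymphoid cells (ILC2s) sense IL-33, IL-25, IL-18 and TSLP were compared between intestinal ILC2s (SI-ILC2s, from the small intestine) and adipose ILC2s (WAT-ILC2s, from mesenteric white adipose tissue). The members were chosen by gene symbol: the receptor subunit genes Il1rl1, Il1rap, Il17rb, Il17ra, Il18r1, Il18rap and Crlf2, the decoy receptor gene Il1r2, and the adaptor genes Myd88 and Traf3ip2. All 10 were found among the 22083 genes of the table. The mice were 9 weeks old, of strain C57BL/6 and wild type, and no treatment is named in the labels. SI-ILC2s had been sorted from lamina propria and WAT-ILC2s from mesenteric fat, and each tissue gave 2 libraries. RNA was sequenced, and the values are RPKM, that is, reads per kilobase of gene and per unit of library depth, so levels of different genes can be compared per length. The depth, estimated from the values, was 55700000 to 76100000 reads per library. Nothing in the labels states whether separate mice gave the libraries of a tissue. The p-values thus reflect only how far these libraries spread, and that spread may be technical.

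ILC2s lack antigen receptors and are activated by cytokines that epithelial and stromal cells release. IL-33 binds ST2, the product of Il1rl1, which pairs with the protein of Il1rap, and IL-18 binds the product of Il18r1, which pairs with that of Il18rap; both complexes signal through the adaptor MyD88. IL-25 binds the product of Il17rb, which pairs with that of Il17ra and signals through ACT1, the product of Traf3ip2. TSLP binds the product of Crlf2, which pairs with the IL-7 receptor chain (Il7r) and signals through JAK kinases and STAT5. The product of Il1r2 binds IL-1 without signalling.

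In intestinal ILC2s the IL-25 receptor gene Il17rb had the highest level of the 8 receptor genes among the members, and in adipose ILC2s the IL-33 receptor gene Il1rl1 had. Il17rb had 152 ± 16.7 RPKM in intestinal ILC2s and 12.3 ± 2.83 in adipose ILC2s (mean ± SD, n = 2), a 12.4-fold difference. Il1rl1 had 64.5 ± 1.61 RPKM in adipose ILC2s and 14.8 ± 0.751 in intestinal ILC2s, a 4.35-fold difference the other way. The partner genes Il1rap, Il17ra and Il18rap and the adaptor gene Myd88 were also higher in adipose ILC2s. Crlf2 and Traf3ip2 did not pass the test, and Il18r1 and Il1r2 stayed below the level needed for it.

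Sequences next to the start sites of Il1rl1, Il1rap and Il17rb are shown because these genes had the largest differences among the members. They are the bases just before RefSeq start sites (GRCm38.p6), 5′ to 3′ on the strand of the gene. RefSeq lists 2 start sites for Il1rl1, called distal and proximal here, and a value per gene does not separate their transcripts, nor the membrane form of ST2 from the soluble form that the same gene encodes. Capitals mark matches, on either strand, to any of the motifs searched. For GATA factors the motif was AGATAA, with TGATAA accepted as well. For ROR factors it was AGGTCA, and for RUNX factors it was TGTGGT. STAT factors were searched as TTCNNNGAA, and the AP-1 motif was TGANTCA. No motif matched overlaps another in the stretches shown. The Il17rb stretch is shorter because bases farther out lie in an exon of the neighbouring gene Chdh.
Il1rl1 distal, chr1:40429320-40429569, plus strand: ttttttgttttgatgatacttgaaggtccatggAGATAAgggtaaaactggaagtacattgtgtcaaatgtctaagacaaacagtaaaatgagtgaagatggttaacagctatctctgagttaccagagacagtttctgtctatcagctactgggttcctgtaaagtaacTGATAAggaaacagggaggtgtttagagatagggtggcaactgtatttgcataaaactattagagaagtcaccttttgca
Il1rl1 proximal, chr1:40439379-40439628, plus strand: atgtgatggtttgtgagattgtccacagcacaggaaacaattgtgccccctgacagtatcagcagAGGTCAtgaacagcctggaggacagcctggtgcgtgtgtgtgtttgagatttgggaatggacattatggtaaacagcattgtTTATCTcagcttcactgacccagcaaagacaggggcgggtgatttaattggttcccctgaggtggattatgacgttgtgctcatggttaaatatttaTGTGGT
Il1rap, chr16:26581455-26581704, plus strand: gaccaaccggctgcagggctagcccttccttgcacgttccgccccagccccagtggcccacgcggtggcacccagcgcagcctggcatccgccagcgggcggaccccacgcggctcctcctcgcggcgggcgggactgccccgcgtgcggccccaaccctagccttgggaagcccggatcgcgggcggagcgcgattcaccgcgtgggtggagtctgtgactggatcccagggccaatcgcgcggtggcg
Il17rb, chr14:30008897-30009022, minus strand: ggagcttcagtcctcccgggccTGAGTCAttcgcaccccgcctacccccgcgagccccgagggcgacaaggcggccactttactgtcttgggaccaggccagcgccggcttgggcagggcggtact

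The stretch before the distal Il1rl1 start held 0 CpG dinucleotides, as did 7.87% of all 32851 windows of 250 bases in the table, whose median was 6. It held 2 matches to the GATA motif, 217 and 80 bases before the start, where 16.6% of all windows held at least 1 match and 2.72% at least 2. The window before the proximal start held 3 CpG and 1 match each to the GATA, ROR and RUNX motifs. ROR and RUNX motifs were each matched in 14% of all windows. The Il1rap window, with 30 CpG, held no match to any of the motifs searched. Il17rb had 27 CpG in its full window of 250 bases and 1 match to the AP-1 motif, 104 bases before the start, against 6.75% of all windows. Windows were found for 8 of the 10 members. The other windows with a match were those of Il18rap (GATA), Il1r2 (GATA and STAT), Crlf2 (RUNX), Myd88 (STAT) and, at 1 of its 3 start sites, Il18r1 (STAT, a motif of 7.02% of windows). A match is a description of letters and not a measured binding site.

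Of the 10 members, 8 had at least 1 RPKM in at least 2 libraries and were tested with limma on log2(RPKM + 1) over all 8230 genes that met this filter. Changes are given as intestinal minus adipose ILC2s on this scale, which understates the change of low genes, and adjusted p-values are Benjamini-Hochberg over those 8230 genes, with a threshold of 0.05. Among the 8, 1 was higher in intestinal ILC2s, 5 were higher in adipose ILC2s and 2 did not pass. Il1rap, one of the 5, passed the filter only through adipose ILC2s, so the filter fixed its direction. It also enters the count of separated libraries and the median below. With no filter Il1rap was called as well (limma, adjusted p = 0.0024). Over all tested genes, 17.9% were called higher in intestinal ILC2s, 29.6% higher in adipose ILC2s and 47.5% in either direction. Both libraries of a tissue lay beyond both of the other for 2 members toward intestinal ILC2s and for 5 toward adipose ILC2s, against 29.8% and 45.9% of all tested genes. The median change of the 8 members was -0.84, and that of all tested genes was -0.15. Scaling moved this last median to -0.02 with quantile normalization, -0.03 with median-of-ratios scaling and -0.27 with equal column sums, and intestinal ILC2s then held 48.4%, 48.2% and 27.6% of the calls against 37.6%. Relative to the median of all genes, the member changes ran from -1.90 for Il1rl1 to 3.68 for Il17rb. With none of these scalings did a member change direction or gain or lose a call. Fits that leave out 1 library, given below, keep 1 library in a tissue. Their p-values were far smaller without an adipose library than without an intestinal library at similar changes. Calls kept, lost or gained in them are therefore only described.

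**Figure D1:**
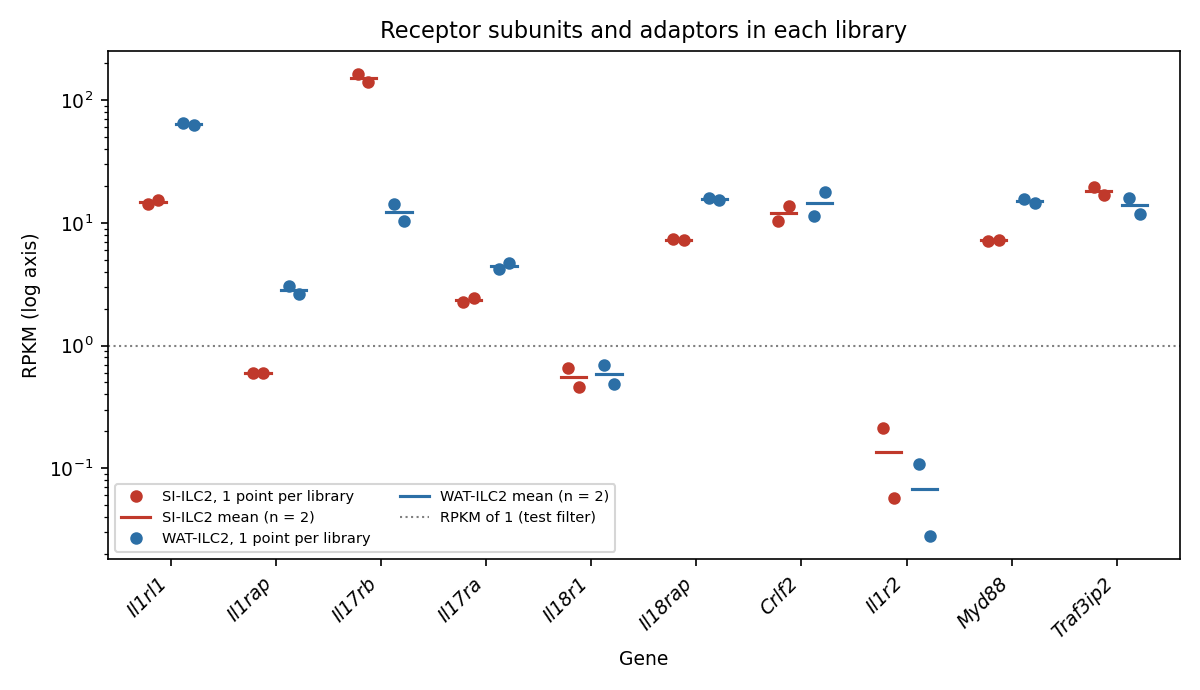
RPKM (log axis) of the 10 members in each library; points are libraries, short bars are means of 2 libraries, and the dotted line is the RPKM of 1 used as the test filter. Il17rb lies above 140 RPKM in both SI-ILC2 libraries and below 15 in both WAT-ILC2 libraries, while Il1rl1, Il1rap, Il17ra, Il18rap and Myd88 lie higher in both WAT-ILC2 libraries.

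Il1rl1 (chromosome 1, 40429570 to 40465415, GRCm38) encodes the chain that binds IL-33. It had 65.7 and 63.4 RPKM in the adipose libraries and 14.3 and 15.4 in the intestinal libraries. The tissues were separated by a gap much wider than the spread within either. In such bulk samples, fewer cells of a type and less RNA per cell cannot be told apart. The change was -2.05 ± 0.14 (SE; limma, adjusted p = 2.8e-04), and it ranked 75 of 8230 among changes toward adipose ILC2s. By level it stood at rank 343 of all genes in adipose ILC2s and 1334 in intestinal ILC2s.

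Il1rap (chromosome 16, 26581704 to 26730117) encodes the co-receptor that ST2 shares with other IL-1 family receptors. Its level was 3.07 and 2.63 RPKM in adipose ILC2s and 0.602 and 0.597 in intestinal ILC2s, with no overlap, and it passed the filter only through the adipose libraries. The change was -1.26 ± 0.13 (limma, adjusted p = 9.4e-04), and the means differed 4.75-fold. Without either adipose library it fell below the filter and was not tested. Its exons overlap an antisense gene, Gm20319, whose reads cannot be told apart from those of Il1rap unless the counting used strand, a setting that no source used here gives.

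The ratio of Il1rl1 to Il1rap within a library overlapped between the tissues although both genes differed between them. It was 23.8 and 25.7 in intestinal ILC2s and 21.4 and 24.1 in adipose ILC2s. On the log2 scale the mean ratio was 4.63 ± 0.0811 in intestinal ILC2s and 4.51 ± 0.12 in adipose ILC2s (SD, n = 2), a difference of 0.12. A ratio within a library does not depend on how libraries are scaled, but this one rests on the low values of Il1rap, and with 1 RPKM added to both genes the difference became -0.79.

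Il17rb (chromosome 14, 29996135 to 30008896) encodes the chain that binds IL-25. intestinal libraries had 164 and 141 RPKM, and adipose libraries had 14.3 and 10.3. The lowest intestinal value was far above the highest adipose value. The change of 3.54 ± 0.19 (limma, adjusted p = 2.0e-04) ranked 16 of 8230 among changes toward intestinal ILC2s, and by level the gene stood at rank 148 in intestinal ILC2s and 1631 in adipose ILC2s. Its exons overlap those of Actr8 on the opposite strand, which had 3.88 ± 0.59 RPKM in intestinal ILC2s and 4.62 ± 0.313 in adipose ILC2s.

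Il17ra (chromosome 6, 120463247 to 120487559), the signalling partner shared by several IL-17 family receptors, went the opposite way. It had 4.19 and 4.67 RPKM in adipose ILC2s and 2.25 and 2.43 in intestinal ILC2s, without overlap. The change was -0.70 ± 0.14 (limma, adjusted p = 0.009), and without intestinal replicate 1 the call was lost (adjusted p = 0.057). Il17rb exceeded Il17ra 72.9-fold and 57.9-fold in the intestinal libraries but 3.42-fold and 2.21-fold in the adipose libraries. The log2 ratio of the subunits differed by 4.56 between tissues, with SDs of 0.235 and 0.446.

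The ratio of Il17rb to Il1rl1 differed most of the 4 ratios compared. Il17rb was 11.5 and 9.15 times Il1rl1 in the intestinal libraries, and Il1rl1 was 4.59 and 6.15 times Il17rb in the adipose libraries. The log2 ratio was 3.36 ± 0.232 in intestinal ILC2s and -2.41 ± 0.298 in adipose ILC2s, a difference of 5.77. With 2 libraries against 2, a two-sided exact permutation test cannot go below 0.33, so the ratios were given no test. Of the summed RPKM of the 8 receptor genes, Il17rb made up 82.1% and 77.9% in intestinal ILC2s and 12.4% and 9% in adipose ILC2s, and Il1rl1 made up 7.15% and 8.51% against 57% and 55.3%. The sum itself was 199.9 and 180.5 RPKM in intestinal ILC2s and 115.2 and 114.6 in adipose ILC2s.

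**Figure D2:**
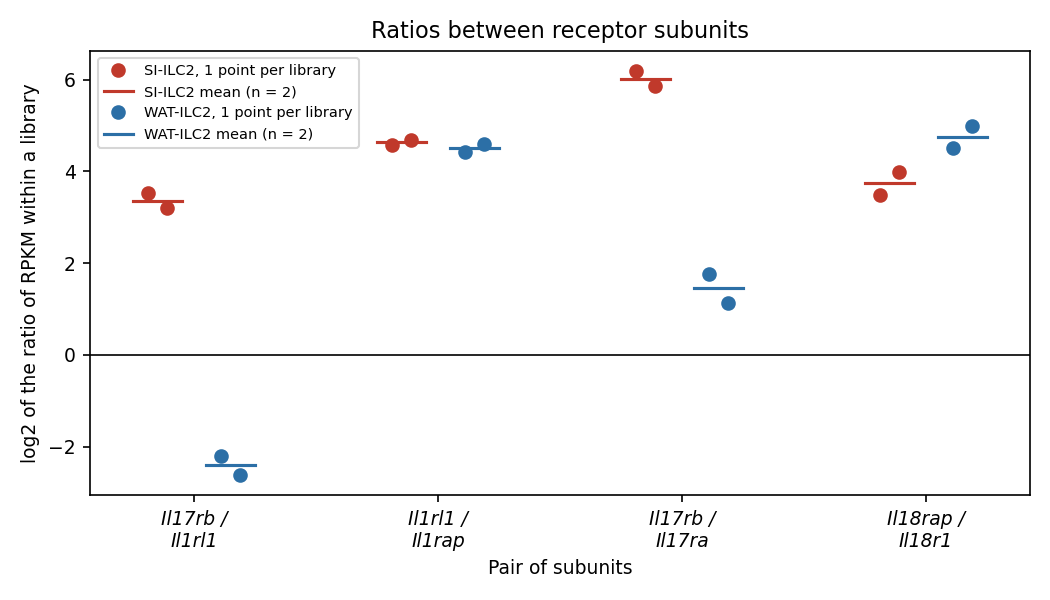
Log2 ratio of RPKM between subunits within each library (points) and mean of 2 libraries (bars); at 0 both genes have the same RPKM. The ratio of Il17rb to Il1rl1 lies above 0 in both SI-ILC2 libraries and below 0 in both WAT-ILC2 libraries, and that of Il1rl1 to Il1rap overlaps between tissues.

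The IL-18 receptor genes were present at unequal levels. Il18rap (chromosome 1, 40515362 to 40551705), the co-receptor gene, had 15.8 and 15.3 RPKM in adipose ILC2s and 7.37 and 7.26 in intestinal ILC2s, a 2.13-fold difference. The libraries of each tissue lay close together, and the change was -0.99 ± 0.13 (limma, adjusted p = 0.0021). Il18r1 (chromosome 1, 40465552 to 40500854), whose product binds IL-18, had 0.656 and 0.459 RPKM in intestinal ILC2s and 0.693 and 0.486 in adipose ILC2s. These values overlap, stayed below the filter and correspond to about 132 to 241 reads per library. Il18rap exceeded Il18r1 11.2-fold and 15.8-fold in intestinal ILC2s and 22.9-fold and 31.5-fold in adipose ILC2s.

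Crlf2 (chromosome 5, 109554709 to 109558993), the TSLP receptor gene, had 10.3 and 13.8 RPKM in intestinal ILC2s and 11.3 and 17.7 in adipose ILC2s. The tissues overlapped, and replicate 2 was the higher library in each. The change of -0.23 had a 95% confidence interval from -0.81 to 0.34 (limma, adjusted p = 0.45), which does not show that the levels were alike. Without adipose replicate 1 the change became -0.53, and without adipose replicate 2 it was 0.068, each with 1 adipose library left. Its partner gene Il7r had 66.9 and 64 RPKM in adipose ILC2s and 33.2 and 39 in intestinal ILC2s, higher in adipose ILC2s with a change of -0.84 ± 0.15 (limma, adjusted p = 0.0056), a call lost without intestinal replicate 1 (adjusted p = 0.068).

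The adaptor genes differed in their pattern. Myd88 (chromosome 9, 119335934 to 119341411), which links IL-1 family receptors to IRAK kinases, had 15.7 and 14.6 RPKM in adipose ILC2s and 7.12 and 7.30 in intestinal ILC2s. The libraries did not overlap, and the change was -0.97 ± 0.13 (limma, adjusted p = 0.0024). Traf3ip2 (chromosome 10, 39612934 to 39655307) had 19.7 and 17 RPKM in intestinal ILC2s and 16 and 11.8 in adipose ILC2s. The lower intestinal library was above the higher adipose library, but by little. Its change of 0.39 had a 95% confidence interval from -0.06 to 0.83 (limma, adjusted p = 0.13). Without adipose replicate 1, which leaves 1 adipose library, the change was 0.59. Exons of Myd88 overlap those of Acaa1a on the opposite strand, which had 17 and 18.1 RPKM in adipose ILC2s and 12.3 and 12.6 in intestinal ILC2s, and its part in the values of Myd88 was not tested. Traf3ip2 overlaps an antisense gene.

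Il1r2 (chromosome 1, 40074079 to 40125231) was close to the limit of detection, with 0.213 and 0.057 RPKM in intestinal ILC2s and 0.108 and 0.0279 in adipose ILC2s. These values rest on about 3 to 31 reads per library, and replicate 1 was the higher library in each tissue.

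Il1r2, Il1rl1, Il18r1 and Il18rap lie in a cluster of IL-1 receptor family genes on chromosome 1 that spans 478 kb, with Il1r1 and Il1rl2 between Il1r2 and Il1rl1. All 6 genes are on the plus strand, and Il18r1 starts 136 bases past the end of Il1rl1. Levels did not follow position: the abundant genes Il1rl1 and Il18rap flank Il18r1, which is below 1 RPKM. Il1r1, the IL-1 receptor gene, had 0.406 RPKM in each adipose library and 0.148 and 0.123 in the intestinal libraries. Il1rl2, the IL-36 receptor gene, had 0.329 and 0.338 RPKM in adipose ILC2s and 0.089 and 0.0873 in intestinal ILC2s. Both were below the filter, with adipose libraries above intestinal libraries. Outside the cluster, the kinase gene Map4k4 had 11.1 and 10.7 RPKM in adipose ILC2s and 9.03 and 8.91 in intestinal ILC2s and did not pass the test (limma, adjusted p = 0.16). On the other side, Slc9a4, Slc9a2 and Mfsd9 had at most 0.164 RPKM in any library.

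**Figure D3:**
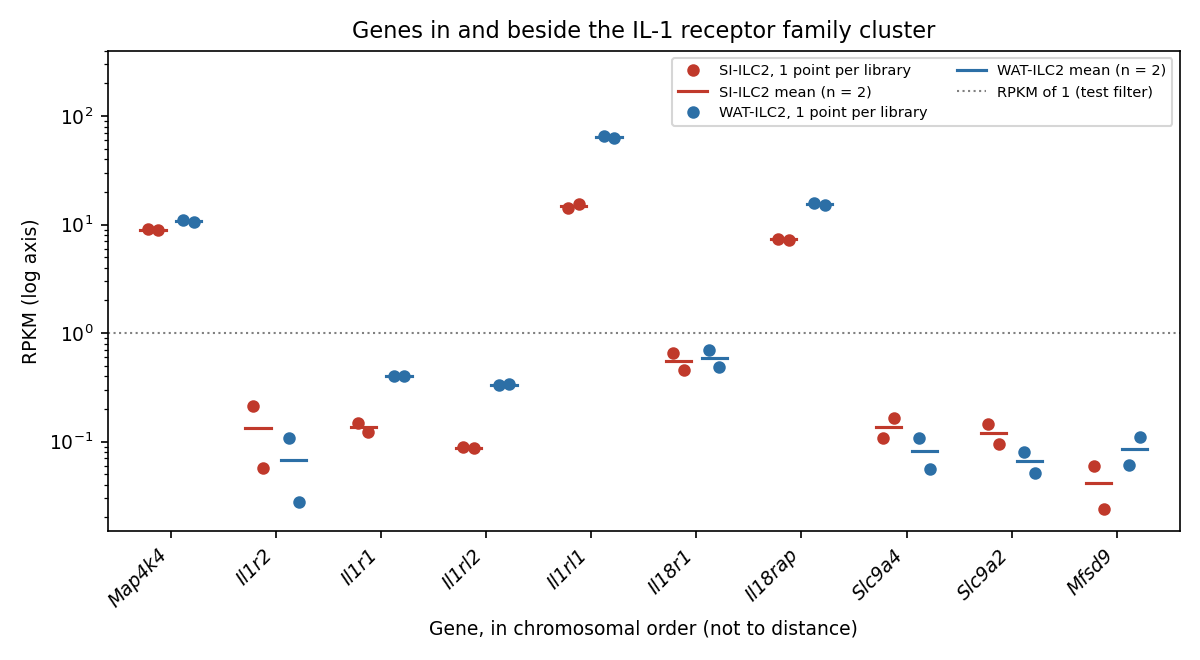
RPKM (log axis) of the 10 genes in and beside the cluster, in chromosomal order and not to distance; points are libraries and bars are means of 2 libraries. Il1rl1 and Il18rap stand above 7 RPKM in all libraries and higher in WAT-ILC2s, and Il18r1 between them stays below 1 RPKM in both tissues.

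Other genes of the same pathways were taken from 6 lists of 56 genes, of which 36 were tested. Among these, 11 were higher in intestinal ILC2s, 13 were higher in adipose ILC2s and 12 did not pass, so that 66.7% were called, against 47.5% of all tested genes. Their median change was -0.19, beside -0.15 for all genes. Both counts fell without either intestinal library, and the count toward adipose ILC2s also fell without either adipose library. Such fits leave 1 library in a tissue, and their p-values differ in footing, so a lost call does not show dependence on that library. With equal column sums the count toward intestinal ILC2s was 7. Of the 24 called genes, 15 lost their call without at least 1 library. Irak3, Stat5a and Stat5b, higher in intestinal ILC2s, and Sigirr, Ikbkb and Ikbke, higher in adipose ILC2s, were called under all 14 alternatives. Il17a, Il17f, Il18bp, Tab1 and Mapk8 passed the filter only through the tissue where they were higher and could not be tested without either library of that tissue. The filter fixed the direction of these calls, which are counted in the 66.7%, so that share is not a result about the pathways.

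Ligand genes were nearly absent from the sorted cells. Il33, Il25, Il18, Tslp, Il1a, Il1b and the antagonist gene Il1rn had at most 0.217 RPKM in any library. The 3 tested genes of this list, Il17a, Il17f and Il18bp, were below 1 RPKM in both adipose libraries and passed the filter only through intestinal ILC2s, so that their direction was fixed by the filter and their count shows nothing about the list. The IL-17 cytokine gene Il17a had 5.30 and 3.83 RPKM in intestinal ILC2s and was listed at 0 and 0.117 in adipose ILC2s, and Il17f had 1.29 and 1.37 against 0.17 and 0.0772 RPKM. Their adjusted p-values were 3.2e-04 and 9.4e-04 (limma). Il18bp, whose product captures IL-18, had 1.6 and 1.14 RPKM in intestinal ILC2s and 0.875 and 0.521 in adipose ILC2s (limma, adjusted p = 0.049). This call was lost under 7 of the alternatives, among them adding 0.1 or 0.5 RPKM in place of 1, no filter, equal column sums and leaving out adipose replicate 2, with adjusted p from 0.050 to 0.24.

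Inhibitory genes of the MyD88 route pointed in different directions. Irak3, which encodes the inhibitory kinase-like protein IRAK-M, had 23.6 and 25.7 RPKM in intestinal ILC2s and 3.70 and 4.70 in adipose ILC2s. It was 5.87-fold higher in intestinal ILC2s, with a change of 2.31 ± 0.16 (limma, adjusted p = 2.9e-04) that ranked 54 of 8230 toward intestinal ILC2s. Sigirr, which encodes an inhibitory receptor of the IL-1 family, had 10.3 and 10.9 RPKM in adipose ILC2s and 4.29 and 3.66 in intestinal ILC2s, with a change of -1.22 ± 0.14 (limma, adjusted p = 0.0014). For neither gene did the tissues overlap. Exons of Irak3 overlap those of Tmbim4 on the opposite strand, which had 8.52 and 8.14 RPKM in intestinal ILC2s and 6.72 and 3.54 in adipose ILC2s.

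Among 13 tested genes below MyD88, 3 were higher in intestinal ILC2s, 5 were higher in adipose ILC2s and 5 did not pass, so that 61.5% were called, against 47.5% of all tested genes. Tab1, one of those higher in adipose ILC2s, passed the filter only through them. The kinase gene Irak4 had 6.26 and 5.34 RPKM in adipose ILC2s and 3.40 and 2.52 in intestinal ILC2s, and the ubiquitin ligase gene Traf6 had 3.77 and 4.55 in intestinal ILC2s and 2.24 and 1.89 in adipose ILC2s. Calls of both (limma, adjusted p = 0.012 and 0.0096) were lost without intestinal replicate 2 (adjusted p = 0.067 and 0.051). Calls of Irak1, Irak2, Ube2v1, Tab1 and Map3k3 were also lost without single libraries, intestinal replicate 2 in each case among them. Irak1 and Irak2 lost theirs with median-of-ratios scaling too (limma, adjusted p = 0.10 and 0.083), and with quantile normalization (0.089 and 0.057). Of 8 tested genes below Traf3ip2, 2 were higher in intestinal ILC2s and 2 in adipose ILC2s, and this share of 50% is near the 47.5% of all tested genes. Ikbke, a kinase gene of this route, had 7.23 and 8.58 RPKM in adipose ILC2s and 4.06 and 4.38 in intestinal ILC2s (limma, adjusted p = 0.0077). Tbk1, a related kinase gene, had 15.4 and 13.1 RPKM in intestinal ILC2s and 7.73 and 7.70 in adipose ILC2s, and its call (limma, adjusted p = 0.0058) was lost without intestinal replicate 1 (adjusted p = 0.051).

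All 4 genes below the TSLP receptor passed the test, as did 47.5% of all tested genes, and 3 of them were higher in intestinal ILC2s, against 17.9% of all tested genes. Stat5a had 4.98 and 5.96 RPKM in intestinal ILC2s and 2.63 and 2.74 in adipose ILC2s, and Stat5b had 5.64 and 6.41 against 2.66 and 3.46. These transcription factor genes changed by 0.81 ± 0.15 and 0.80 ± 0.16 (limma, adjusted p = 0.0065 and 0.0095), and near-identical stretches of their sequences could share reads. Jak2 had 56.9 and 76.1 RPKM in intestinal ILC2s and 33.8 and 42.9 in adipose ILC2s (limma, adjusted p = 0.021), and its call was lost without intestinal replicate 2 (adjusted p = 0.13). Jak1 had 24.2 and 30.2 RPKM in adipose ILC2s and 17.4 and 18 in intestinal ILC2s (limma, adjusted p = 0.024), and its call was lost without either intestinal library or adipose replicate 2 (adjusted p = 0.092 to 0.14). Of the 6 kinase genes that both adaptor routes reach, 3 were higher in adipose ILC2s and 3 did not pass, a share of 50% called that is near the 47.5% of all tested genes. Of these 3, Mapk8 passed the filter only through adipose ILC2s, and Mapk14 (limma, adjusted p = 0.039) lost its call without intestinal replicate 1, without adipose replicate 2 and with no filter (adjusted p = 0.19, 0.052 and 0.072). Ikbkb, the gene of the kinase IKK-beta, had 13.4 and 12.1 RPKM in adipose ILC2s and 5.02 and 4.83 in intestinal ILC2s (limma, adjusted p = 0.0013), while Chuk, the gene of IKK-alpha, had an adjusted p of 0.49.

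**Figure D4:**
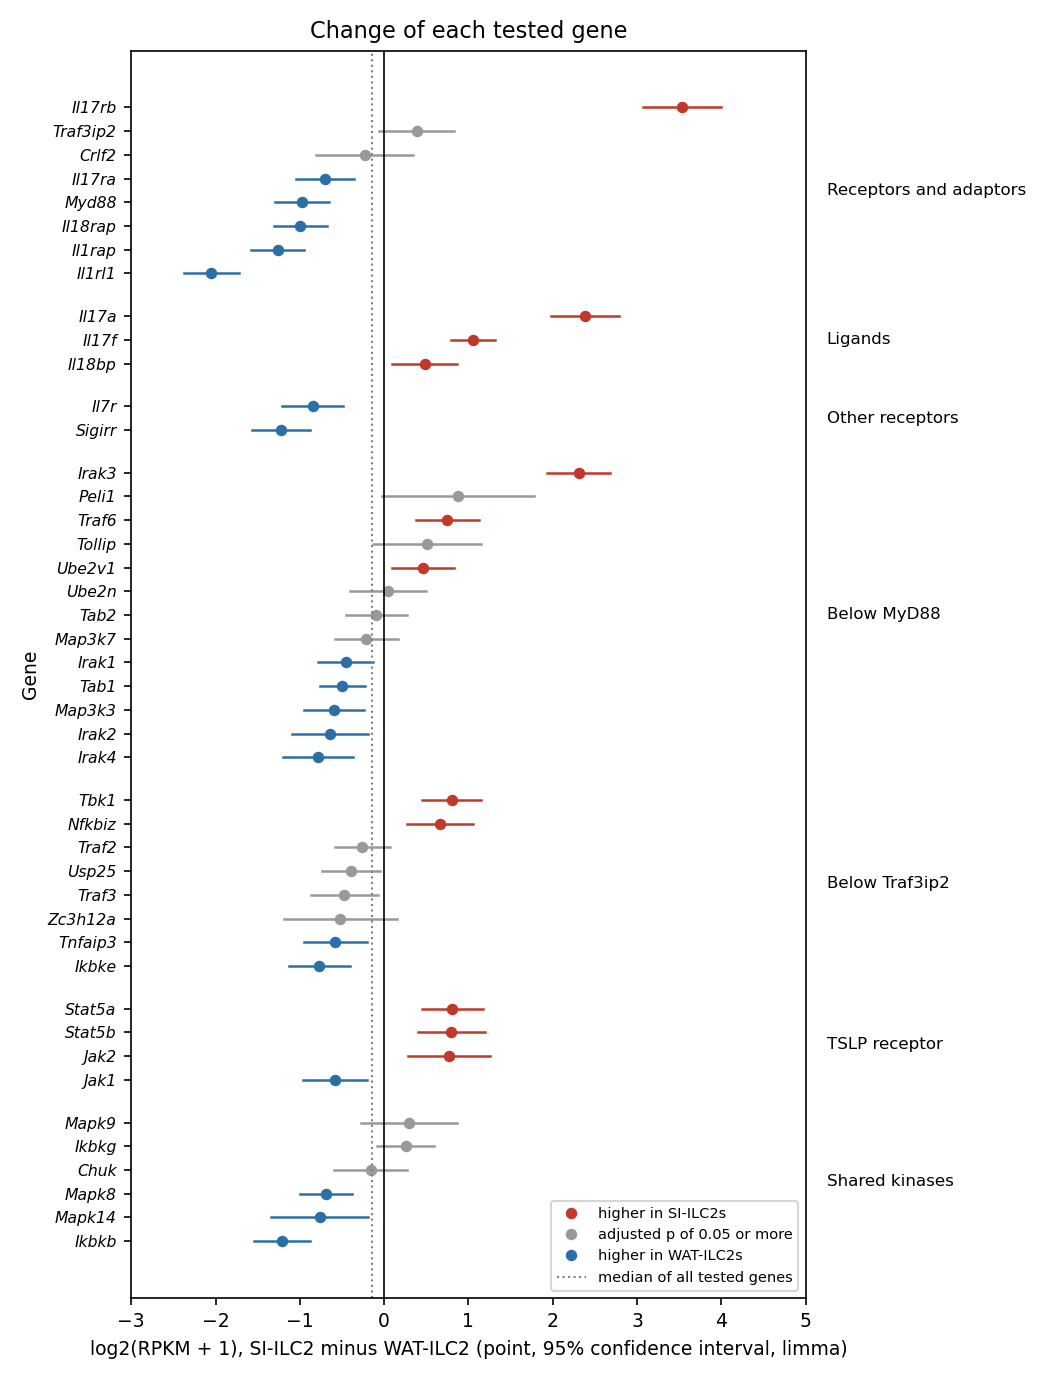
Change of each tested member and pathway gene (SI-ILC2s less WAT-ILC2s, log2(RPKM + 1), limma) with its 95% confidence interval, grouped by role; the dotted line is the median of all tested genes. Il17rb, Il17a and Irak3 lie farthest toward SI-ILC2s, at 3.54, 2.38 and 2.31, and Il1rl1 lies farthest toward WAT-ILC2s, at -2.05.

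The tested genes most like 3 of the receptors were found by the Euclidean distance of log2(RPKM + 1) over the 4 libraries, leaving out predicted genes. Closest to Il1rl1 were Nrgn (distance 0.188), which had 69.4 RPKM in adipose ILC2s and 14.4 in intestinal ILC2s, Fes (0.561) and Rgcc (0.569). Closest to Il17rb were Cd74 (1.0), Osbpl9 (1.14) and Tnfrsf9 (1.27), at larger distances, and Tnfrsf9 had 211 RPKM in intestinal ILC2s and 21.5 in adipose ILC2s. Among tested genes, Il18r1 was closest to Camkk1 (0.49), Kif3b (0.542) and Deb1 (0.555). Il18r1 itself lies below the filter, and genes below it were not searched, so these 3 are not its nearest genes in the whole table. Csf1r, one gene below the filter with values nearer to those of Il18r1, had 0.525 and 0.537 RPKM in intestinal ILC2s. In adipose ILC2s Csf1r had 0.534 and 0.424 RPKM. These distances describe 4 libraries and carry no test.

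Marker genes were examined because other cells also express these receptors. All 12 ILC2 markers were above the filter, of which 4 were higher in intestinal ILC2s, 3 were higher in adipose ILC2s and 5 did not pass. The share called was 58.3%, against 47.5% of all tested genes, so this count says little about the markers. Gata3 had 338 to 397 RPKM and did not pass, Icos and Il13 were 3.94-fold and 4.46-fold higher in intestinal ILC2s, and Thy1 was 6.04-fold higher in adipose ILC2s. Mast cells and basophils and regulatory T cells also express Il1rl1. The 10 mast cell and basophil markers summed to 0.686 to 0.753 RPKM in intestinal ILC2s and 1.91 to 3.29 in adipose ILC2s, with Cpa3 the highest at 1.26 and 1.11 in adipose ILC2s. The other 9 were not tested and ranged from Mcpt2, listed at 0 in 3 of 4 libraries, to Tpsb2, with 0.599 RPKM in adipose replicate 1. The 9 T cell markers summed to 32 to 38.2 RPKM in intestinal ILC2s and 58.7 to 80 in adipose ILC2s, mostly Lat and Cd3g, while Foxp3 had 0.958 to 1.09 against 1.53 to 1.70 and Cd4, Cd5 and Cd8a had at most 0.211. NK cell and ILC1 markers summed to 8.61 to 8.77 RPKM in intestinal ILC2s and 0.645 to 0.953 in adipose ILC2s, mostly Gzmb, with at most 0.128 for Tbx21 and 0.0783 for Eomes. ILC3 markers summed to 4.01 to 5.89 against 0.481 to 0.513 RPKM, led by Il22 and Il17f. The 8 neutrophil markers summed to at most 0.9 RPKM in any library. The remaining lists summed to 2.01 to 4.10 RPKM in intestinal ILC2s and 6.44 to 8.10 in adipose ILC2s (macrophage and dendritic cell), 13.4 to 17.7 and 2.61 to 3.14 (B cell, mostly Cd79b), 5.66 to 13.2 and 8.46 to 9.07 (epithelium), 1.41 to 1.62 and 4.99 to 10.2 (fibroblast and adipocyte), 4.57 to 6.21 and 5.13 to 6.99 (endothelium), and 13.2 to 41.5 and 88.9 to 140 (red cell). Among the epithelial markers, Krt8 had 4.32 RPKM in intestinal replicate 2 and 0.24 in intestinal replicate 1. Epcam had 8.28 and 7.85 RPKM in adipose ILC2s and 4.68 and 6.04 in intestinal ILC2s. The part of all these marker lists in the receptor differences was not tested. Tissue and isolation procedure went together in this design, so their parts cannot be told apart.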

How the data were processed

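Per the labels, total RNA of ILC2s sorted from both tissues went into libraries prepared using KAPA reagents. The authors deposited RPKM values in a table with a column per library. The submitters' processing notes name STAR 2.6.0, featureCounts 1.6.0 and the mouse build GRCm38. No source used here gives the sort markers, annotation, strand setting or filters. Groups came from the sample titles. Depth was estimated at 55700000 to 76100000 reads from the steps between low values of single-exon genes (79.6% to 81.5% of low values within 0.1 of a whole read, 20% by chance); depth was taken as the lowest that gave nearly the best share, and approximate read numbers use GENCODE M21 exon lengths. Column sums were 136705 to 158718.

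RPKM is not a count, so log2(RPKM + 1) was tested with limma 3.58.1 in R 4.3.3 (variance trend, all 4 libraries, no covariate) on genes with at least 1 RPKM in at least 2 libraries, and the steps were tested on simulated data. Within-library r was 0.985 and 0.979, against 0.863 to 0.88 between tissues (Pearson, across genes, which are not independent replicates). Members, lists and alternatives were chosen with earlier results of these data known. Named genes were the 10 members, genes of the cluster and up to 4 called genes per direction of each pathway list. Genes of the ligand and receptor lists and leading or defining markers were also named. So were the nearest 3 tested genes by pattern for Il1rl1, Il17rb and Il18r1. Overlapping genes, undetected markers, Icos, Il13, Thy1, Csf1r and genes called only with the replicate block were added after their values were seen. Adgre1 is not analysed here. Promoter sequences are from RefSeq (GRCm38.p6).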

Additional observations from a re-analysis of the deposited data

How the results depend on the processing

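The 45 tested genes of the receptor, cluster and pathway lists were refitted under each of 14 alternatives whose filter they passed. Of the 615 values, 532 kept their direction and side of the threshold, 53 lost a call, 22 gained a call and 8 changed sign. Il1rl1, Il17rb, Il18rap and Myd88 were called in the same direction under all 14, and Il1rap under the 12 in which it was tested. Sign changes came from leaving out 1 library at a time for Crlf2 (-0.534 to 0.0682, positive without adipose replicate 2), Ube2n (-0.166 to 0.259, negative at -0.0526 without intestinal replicate 1 and lowest without adipose replicate 2), Tab2 (-0.211 to 0.0239, positive without intestinal replicate 2), Chuk (-0.325 to 0.0075, positive without adipose replicate 2) and Mapk9 (-0.0275 to 0.608, negative without adipose replicate 1), and from scaling for Ube2n (-0.0908 with equal column sums) and Tab2 (0.0366 with median-of-ratios scaling), none of which had passed the test. The difference in the log2 ratio of Il1rl1 to Il1rap became -0.79 with 1 RPKM added, since Il1rap is low. Leaving out 1 library at a time gave 745 to 1549 genes of the whole table higher in intestinal ILC2s and 1439 to 1995 higher in adipose ILC2s, 1 to 2 members higher in intestinal ILC2s and 4 to 5 in adipose ILC2s, and 4 to 12 pathway genes higher in intestinal ILC2s and 6 to 11 in adipose ILC2s. The lowest counts over the whole table came without intestinal replicate 1, and without intestinal replicate 2 the count toward intestinal ILC2s was 768. In these fits the lone library is assumed to vary like the others. The change of Il17rb was 3.76 ± 0.23 without adipose replicate 1 and 3.43 ± 0.28 without intestinal replicate 1 (SE). Its p-value was nevertheless far smaller in the former, so calls cannot be compared between fits without an adipose library and fits without an intestinal library. With equal column sums, 7 pathway genes were higher in intestinal ILC2s and 15 in adipose ILC2s. Toward adipose ILC2s the count was 9 with median-of-ratios scaling, 10 with quantile normalization and 9 with no filter. The causes were not tested. The labels give both tissues replicates 1 and 2 but do not say that a number marks a shared mouse or day. Deviations of same-numbered libraries correlated at 0.572 across genes. In the main fit, spread pooled over genes supplied 4.39 of the 6.39 degrees of freedom behind each p-value, more than the libraries of the gene itself. A fit with the replicate number as a block leaves each gene still less spread of its own, and its p-values rest mostly on spread pooled over genes. In it Il1rl1 had an adjusted p of 6.8e-23, against 2.8e-04 without the block (limma). Calls of the block fit are thus not comparable with the main calls. With the replicate number as a block, 2271 genes were higher in intestinal ILC2s and 3430 in adipose ILC2s, and 2 members were higher in intestinal ILC2s, Traf3ip2 being added (adjusted p = 6.0e-04, limma), while Crlf2 was called higher in adipose ILC2s (adjusted p = 0.038). The block also gave 13 pathway genes higher in intestinal ILC2s and 17 in adipose ILC2s, adding Tollip and Peli1 to the former and Traf2, Traf3, Usp25 and Zc3h12a to the latter, and it called Map4k4 higher in adipose ILC2s (adjusted p = 0.031, limma). Il1r2 rests on too few reads to show a difference at this depth.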
